A study of Mus musculus with 12 samples.

Results

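The 9 genes described here encode enzymes and pore-forming proteins of inflammatory and programmed cell death: Casp1, Casp4, Casp8, Gsdmd, Gsdmc2, Gsdmc4, Ripk1, Ripk3 and Mlkl. They were chosen by symbol, and each matched 1 of the 46517 gene IDs in the count tables. RNA was sequenced from intestinal epithelial cells (IECs) of the colon of C57BL/6 mice aged 7 to 9 weeks. The 4 groups of 3 samples were wild-type (WT) mice left untreated, WT mice given dextran sulfate sodium (DSS) for 48 h, Nfkb2-/- mice (here KO) left untreated, and Nfkb2-/- mice given DSS for 48 h. DSS is a polysaccharide that damages the colonic epithelium, and Nfkb2 encodes p100, the precursor of the NF-kB subunit p52. No Cre or other cell-restricted deletion is named for the KO mice, and no other treatment or allele is given for any group. The cells were released with EDTA and not sorted, and about 90% were typically EpCAM+ and CD45.2- by flow cytometry, per the labels.

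Pyroptosis, apoptosis and necroptosis are linked routes of cell death in the gut lining. Inflammatory caspases cut gasdermin D, whose freed part forms pores in the plasma membrane. Caspase-8 starts apoptosis downstream of death receptors and holds back necroptosis, in which the kinases RIPK1 and RIPK3 lead to phosphorylation of MLKL, which then breaks the membrane. Gasdermin C genes belong to the same pore-forming family and are abundant in the intestinal epithelium of mice.

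Total counts ranged from 5595909 to 8117740 per sample. Levels are CPM, which is counts scaled to a library total of 1000000 after edgeR's TMM factors. All 11 epithelial markers had counts in every group. Their summed level was 28978 to 39565 CPM in untreated WT and 30876 to 32411 CPM in WT under DSS. It was 29814 to 32355 CPM in untreated KO and lowest in KO under DSS, at 26164 to 28564 CPM. Of the 11, 10 had the lower mean in untreated KO against untreated WT. In each genotype 8 of the 11 had the lower mean under DSS. Nfkb2 was lower in every KO sample than in every WT sample, with 87 to 143 counts against 211 to 346. The mean difference was -1.31 in log2 CPM (exact permutation test, two-sided p = 0.00216, the smallest this design allows). All WT libraries carry lower library numbers than all KO libraries, so library order and genotype cannot be told apart.

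The differentiated colonocyte and leukocyte marker sums also moved with the groups. The summed level of 9 differentiated colonocyte markers was 9320.3 to 10469.7 CPM in untreated WT and 2262 to 2668 CPM in WT under DSS. It was 5719.8 to 6215 CPM in untreated KO and 2717 to 3296 CPM in KO under DSS. Car1 carried the difference between the untreated genotypes, with means of 7068 CPM in WT and 2552 CPM in KO. Without it the sum was 2175 to 3476 CPM in untreated WT and 3276 to 3406 CPM in untreated KO, and 5 of the 9 markers, Slc26a3, Car4, Aqp8, Slc20a1 and Ms4a10, had the higher mean in KO. Under DSS the sum without Car1 was 1066 to 1089.7 CPM in WT and 1233 to 1398 CPM in KO, and 7 of the 9 markers had the lower mean under DSS in each genotype. The sum without Car1 was chosen after seeing the data. The summed level of 27 leukocyte markers was 27.5 to 57.6 CPM in untreated WT, with 25 of the 27 detected, and 94.6 to 100.1 CPM in WT under DSS, with all 27 detected. In KO it was 123 to 137 CPM untreated, with 26 detected, and 180.3 to 251 CPM under DSS, with all 27 detected. Of the 27, 25 had the higher mean under DSS in each genotype, 19 in untreated KO against untreated WT and 20 in KO against WT under DSS. Among the defining leukocyte markers, Ptprc (CD45) was present in every sample, and Cd79a had 0 to 7 counts. In these bulk samples fewer cells of a type and less RNA per cell cannot be told apart.

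**Figure D1:**
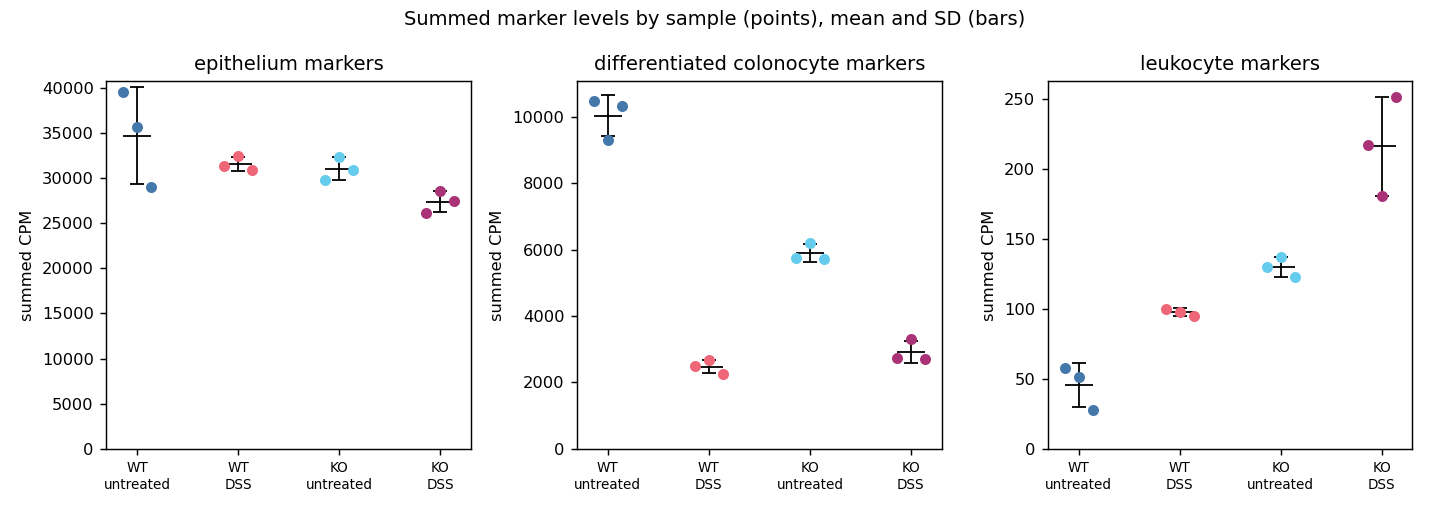
Summed CPM of the epithelial, differentiated colonocyte and leukocyte markers (y axes, linear from 0) in each of the 12 samples (points) by group (x axis), with mean and SD as bars. The differentiated colonocyte sum, most of it Car1 in untreated WT, was highest there, at 9320.3 to 10469.7 CPM, and the leukocyte sum was highest in KO under DSS, at 180.3 to 251 CPM.

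Gasdermin C genes are near-identical copies that lie side by side, which bears on how their reads could be counted. Gsdmc2 lies at chr15:63824346-63845177 and Gsdmc4 at chr15:63891264-63912297, both on the minus strand (GRCm38). Gsdmc3, which is not among the 9 genes, lies between them at chr15:63857724-63878558, and Gsdmc lies beside them. The coding sequences of Gsdmc2, Gsdmc3 and Gsdmc4 are each 1443 bases long. Gsdmc2 and Gsdmc3 are 97.1% identical, and each is 93.8% identical to Gsdmc4. Their first 120 coding bases are shown because they are the same but for 2 positions, written in capitals.
Gsdmc2: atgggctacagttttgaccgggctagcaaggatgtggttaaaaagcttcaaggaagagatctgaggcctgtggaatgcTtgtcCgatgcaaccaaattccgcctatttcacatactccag
Gsdmc3: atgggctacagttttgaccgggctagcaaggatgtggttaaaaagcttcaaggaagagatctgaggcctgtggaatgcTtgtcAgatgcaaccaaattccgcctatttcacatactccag
Gsdmc4: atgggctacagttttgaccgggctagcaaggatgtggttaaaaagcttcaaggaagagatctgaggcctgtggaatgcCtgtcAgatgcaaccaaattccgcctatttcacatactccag
Over the exons, 51.3% of the 50-base words of Gsdmc2 and 39% of those of Gsdmc4 also occur in another gene. How the authors' counting treated reads that fit several copies is not given in the sources used here, so the split between these genes is uncertain.

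Gsdmc2 and Gsdmc4 were the most abundant of the 9 genes and the ones whose level varied most. Both were high in untreated WT and several-fold lower in the other 3 groups. Gsdmc2 measured 9985, 9169 and 5622 CPM in the 3 untreated WT samples, a mean of 8259 ± 2319.6 (SD, n = 3). Under DSS the WT samples had 2194, 2089 and 1893 CPM. Every untreated WT sample was above every WT sample under DSS, and the log2 fold change was -2.00 ± 0.16 (SE, edgeR adjusted p = 1.92e-06), a level 4.01-fold lower.

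In KO the level was already low before DSS. Untreated KO samples had 1741, 1979 and 1922 CPM of Gsdmc2, which was 4.39-fold below untreated WT (log2 fold change -2.13 ± 0.16, adjusted p = 2.87e-06). KO samples under DSS had 2214, 2377 and 2448 CPM. These lay above the untreated KO samples without overlap, but the log2 difference of 0.32 ± 0.15 did not pass (adjusted p = 0.334). Under DSS, KO and WT differed by 0.19 on the log2 scale (95% confidence interval -0.14 to 0.52, adjusted p = 0.649). The DSS change in KO minus that in WT, here called the interaction, was 2.32 ± 0.22 (adjusted p = 5.55e-05).

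Gsdmc4 followed the same order at a higher level. It measured 16873, 13439 and 7958 CPM in untreated WT and 4732, 4672 and 4232 CPM in WT under DSS. The DSS samples were all lower (log2 fold change -1.49 ± 0.18, adjusted p = 0.000126). In KO it measured 3746, 4279 and 3959 CPM untreated and 4715, 4926 and 5284 CPM under DSS. Untreated KO was 3.19-fold below untreated WT (-1.68 ± 0.19, adjusted p = 9.89e-05), and the groups did not overlap. The DSS difference in KO was 0.32 ± 0.18 (adjusted p = 0.441), and KO against WT under DSS was 0.13 (interval -0.26 to 0.52, adjusted p = 0.816). The interaction was 1.81 ± 0.26 (adjusted p = 0.00133).

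Replicate 3 of untreated WT was the lowest of its group for both genes, yet it was above every sample of the other groups. Without it, the changes under DSS in KO passed, at 0.32 for Gsdmc2 (adjusted p = 0.0166) and 0.31 for Gsdmc4 (adjusted p = 0.0387). They also passed with no filter on low counts (adjusted p = 0.0164 and 0.00626) and when only the KO samples were fitted (adjusted p = 0.0245 and 0.0192). Their calls in WT, between untreated genotypes and for the interaction were lost in no alternative fit that gave a value.

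**Figure D2:**
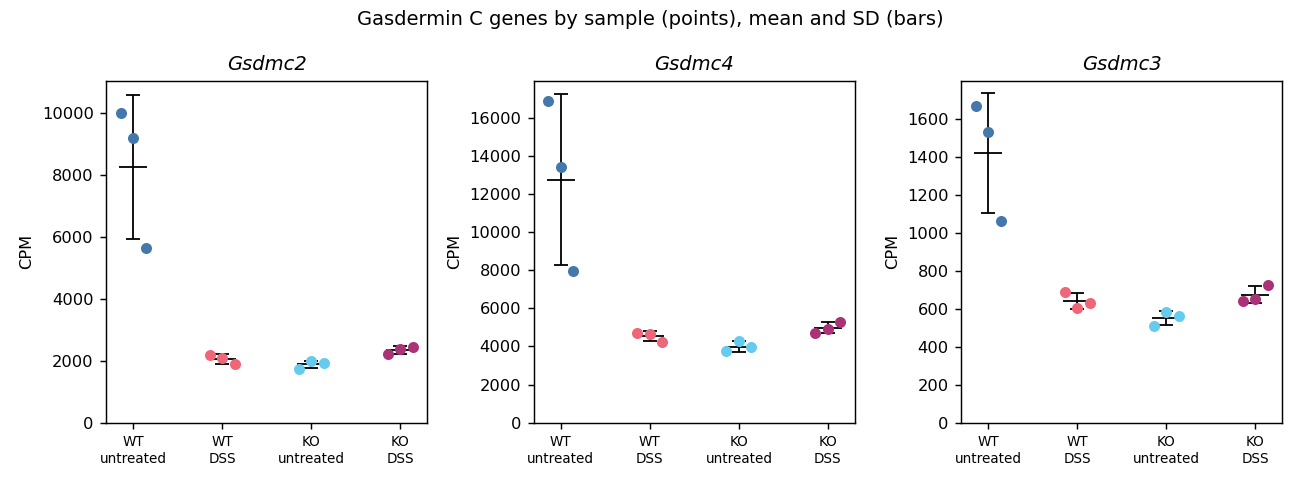
CPM (y axes, linear from 0) of Gsdmc2, Gsdmc4 and Gsdmc3 in each sample (points) by group (x axis), with mean and SD as bars. The 3 untreated WT samples were above the other 9 for each gene, and they were also the most spread, from 5622 to 9985 CPM for Gsdmc2.

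The neighbouring copy Gsdmc3 had the same order of groups, with 1667, 1529 and 1062 CPM in untreated WT and 509 to 725 CPM in the other 9 samples. It fell by 1.15 on the log2 scale under DSS in WT (adjusted p = 8.04e-05) and was lower in untreated KO (-1.37, adjusted p = 3.64e-05). Gsdmc, the fourth copy, had 0 to 5 counts per sample and was not tested. When the counts of the 4 copies were added into 1 gene, a choice made after seeing the data, the sum had a log2 fold change of -1.63 ± 0.17 under DSS in WT (adjusted p = 2.11e-05). The sum differed by -1.8 ± 0.17 between untreated genotypes (adjusted p = 2.11e-05), and its interaction was 1.95 ± 0.23 (adjusted p = 0.000376).

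These transcripts took a sizeable part of each library. Gsdmc2 and Gsdmc4 together held 2.38%, 2.12% and 1.39% of all counts in the untreated WT samples. They held 0.622% to 0.699% in WT under DSS, 0.563% to 0.632% in untreated KO and 0.7% to 0.781% in KO under DSS. Ranked by counts among all genes, Gsdmc4 was in places 4 to 8 in untreated WT and 11 to 17 in the other samples. The ratio of Gsdmc4 to Gsdmc2 counts was 1.42 to 1.69 in untreated WT and 2.06 to 2.24 in the other 9 samples, so Gsdmc2 was lowered more than Gsdmc4 in these counts. This ratio was not tested, and it rests on reads whose assignment is uncertain.

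The differentiated colonocyte sum was higher in untreated KO (5719.8 to 6215 CPM) than in WT under DSS (2262 to 2668 CPM), and without Car1 it did not separate the untreated genotypes. The gasdermin C genes had another order, since Gsdmc2 was 5622 to 9985 CPM in untreated WT, 1741 to 1979 CPM in untreated KO and 1893 to 2194 CPM in WT under DSS. That contrast holds for the sum and not for each of its markers. Car1 alone, like the gasdermin C genes, was highest in untreated WT, with a mean of 7068 CPM. Its mean was 2552 CPM for KO without DSS, and with DSS 1395 CPM for WT and 1626 CPM for KO. Between untreated genotypes, 4 of the 9 markers, Car1 among them, had the lower mean in KO and 5 the higher. The leukocyte sum was lowest in untreated WT, where the gasdermin C genes were highest. The part of cell composition in the gasdermin C differences was not tested.

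Gsdmd, at chr15:75862327-75867408 on the plus strand, encodes the gasdermin that inflammatory caspases cut. It varied far less than the gasdermin C genes and passed the test in none of the 5 contrasts. Its level was 281, 282 and 225 CPM in untreated WT and 311, 316 and 305 CPM in WT under DSS. These groups did not overlap, and the log2 difference was 0.24 (95% interval 0.02 to 0.46, unadjusted p = 0.0321, adjusted p = 0.222). In KO it was 244, 267 and 253 CPM untreated and 268, 251 and 282 CPM under DSS, with overlap (0.07, adjusted p = 0.822). Under DSS every KO sample was below every WT sample, at -0.22 (interval -0.44 to 0.00, adjusted p = 0.348).

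Casp1 encodes caspase-1, the protease that inflammasomes activate and that cuts gasdermin D, pro-IL-1b and pro-IL-18. The gene lies at chr9:5298517-5307265 on the plus strand. It had 368, 334 and 305 CPM in untreated WT and 336, 329 and 351 CPM in WT under DSS. In KO it had 334, 340.3 and 300.2 CPM untreated and 264, 354 and 345 CPM under DSS. The 4 groups overlapped throughout, and the highest group mean was 1.06 times the lowest. The DSS difference was 0.01 in WT (95% interval -0.23 to 0.26) and -0.02 in KO (-0.27 to 0.23), and the intervals bound what these samples could show. Genotypes differed by -0.05 untreated and -0.08 under DSS, and none of these passed.

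Casp4 lies next to Casp1 at chr9:5308828-5336783 on the plus strand. It encodes mouse caspase-11, which senses lipopolysaccharide inside cells and cuts gasdermin D directly. Its 250 bases before a RefSeq transcript start (chr9:5308599-5308848, plus strand, GRCm38.p6) are shown because the gene passed a test and the animals lack an NF-kB subunit. Capitals mark matches to GGGNNNNNCC on either strand.
Casp4: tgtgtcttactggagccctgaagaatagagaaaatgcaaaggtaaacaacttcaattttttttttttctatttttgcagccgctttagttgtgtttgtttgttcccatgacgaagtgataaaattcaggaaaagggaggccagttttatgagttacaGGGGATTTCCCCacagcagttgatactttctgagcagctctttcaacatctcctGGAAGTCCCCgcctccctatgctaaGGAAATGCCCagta
The first block of capitals holds overlapping matches, and GGGGATTTCC, GGGATTTCCC and GGAAGTCCCC also match the stricter NF-kB consensus searched for. Of 32851 promoter windows of this length, 45.8% hold GGGNNNNNCC and 7.25% hold the NF-kB consensus on either strand. A match is a description of the letters, and no binding was measured.

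Casp4 was highest in KO under DSS. It measured 67.3, 84.1 and 80.3 CPM in untreated KO and 120.0, 118 and 101 CPM in KO under DSS. The groups did not overlap, and Casp4 rose by 0.55 ± 0.14 on the log2 scale (adjusted p = 0.044), a 1.46-fold change. In WT it measured 78.9, 69.1 and 70.2 CPM untreated and 71.2, 95.6 and 93.1 CPM under DSS, with overlap. The WT difference was 0.25 ± 0.14 (adjusted p = 0.404). Under DSS every KO sample was above every WT sample, but this difference did not pass (0.38, adjusted p = 0.199), and neither did the interaction (0.29, adjusted p = 0.698). A larger DSS change in KO than in WT is therefore not shown for Casp4.

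The Casp4 call was close to the threshold. With the replicate number as a block its adjusted p was 0.0666, and over the 12 fits that each left out 1 sample the call was lost in 9, with an adjusted p of 0.0382 to 0.185 and a fold change of 0.45 to 0.62 in log2. The leukocyte marker sum was also highest in KO under DSS, at 180.3 to 251 CPM, and its part in the Casp4 values was not tested.

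Casp8, at chr1:58795374-58847503 on the plus strand, encodes the initiator caspase of death receptor signalling. It had 229, 232 and 199 CPM in untreated WT and 180.0, 182 and 177 CPM in WT under DSS. In KO it had 185, 188 and 193 CPM untreated and 164, 169.9 and 176 CPM under DSS. The groups were separate in all 4 comparisons of a pair of groups, yet the differences were small and none passed. DSS against untreated was -0.29 ± 0.09 in WT (95% interval -0.49 to -0.10, adjusted p = 0.0846) and -0.15 ± 0.09 in KO (adjusted p = 0.469). KO against WT was -0.22 untreated (adjusted p = 0.25) and -0.08 under DSS (adjusted p = 0.766). The WT difference under DSS passed with DESeq2 (-0.3, adjusted p = 0.0403) and without replicate 3 of untreated WT (-0.36, adjusted p = 0.0208). Of the 50-base words of Casp8, 4.37% are shared with the predicted gene Gm20257. The mean of Casp8 and the differentiated colonocyte sum were both highest in untreated WT and next highest in untreated KO, and the part of that sum in the Casp8 values was not tested.

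Over the 12 samples, log2 CPM of Casp8 correlated with that of Gsdmc2 at r = 0.85 and of Gsdmc4 at r = 0.84. Gsdmc2 and Gsdmc4, which can share reads, correlated at 0.99. The points share their libraries and the 4 groups, so these are descriptions only.

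Ripk1 encodes the kinase at the centre of the complexes that form at TNF receptors. It lies at chr13:34002363-34037147 on the plus strand and was the least abundant of the 9 genes, with 61 to 267 counts per sample. It measured 16.3, 12.8 and 14.7 CPM in untreated WT and 9.26, 20.0 and 19.1 CPM in WT under DSS. In KO it measured 16.4, 8.67 and 22.9 CPM untreated and 47.2, 12.6 and 28.5 CPM under DSS. The KO samples under DSS were thus spread over nearly the whole range of the gene, and all groups overlapped. Its exons overlap those of Gm17084 on the same strand by 511 bases and those of Serpinb6a on the other strand by 241 bases, and the library method keeps no strand information. The log2 differences were 0.14 for DSS in WT (interval -0.79 to 1.08) and 0.87 for DSS in KO (-0.04 to 1.79, adjusted p = 0.346). KO against WT under DSS was 0.86 (adjusted p = 0.38). With no filter on low counts these last 2 contrasts passed, with adjusted p of 0.0395 and 0.0467.

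Ripk3 encodes the kinase that phosphorylates MLKL. It lies at chr14:55784995-55788865 on the minus strand. The 250 bases before its start (chr14:55788858-55789107, minus strand, GRCm38.p6, RefSeq) are shown for comparison with Casp4, because the gene's response to DSS differed between genotypes. They hold none of the motifs searched, which were GGGNNNNNCC, the NF-kB consensus, TTCNNNGAA (held by 7.02% of windows) and GAAANNGAAA (2.98%).
Ripk3: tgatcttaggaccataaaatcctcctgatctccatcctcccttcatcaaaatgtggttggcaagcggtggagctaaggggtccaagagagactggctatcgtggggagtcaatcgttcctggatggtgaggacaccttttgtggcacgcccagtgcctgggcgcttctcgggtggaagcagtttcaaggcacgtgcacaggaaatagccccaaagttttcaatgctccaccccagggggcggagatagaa
That says only that these letters are not in this window.

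Ripk3 rose under DSS in WT and was lower in KO than in WT under DSS. Untreated WT samples had 49.3, 50.2 and 52.4 CPM, and WT samples under DSS had 82.8, 75.3 and 74 CPM. The groups were well apart (log2 fold change 0.61 ± 0.12, adjusted p = 0.00594), a 1.53-fold rise. KO samples had 62.5, 63.3 and 57.5 CPM untreated and 50.4, 44.8 and 51.4 CPM under DSS. Here the DSS samples were all below the untreated ones, but the difference of -0.32 ± 0.12 did not pass (adjusted p = 0.19).

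Between genotypes, Ripk3 under DSS was 1.58-fold lower in KO (-0.66 ± 0.12, adjusted p = 0.00743). Untreated KO samples were all above untreated WT samples, by 0.27, which did not pass (adjusted p = 0.297). The interaction was -0.93 ± 0.17 (adjusted p = 0.0095). Without replicate 1 of WT under DSS, the highest sample, the genotype difference under DSS was -0.61 and missed the threshold (adjusted p = 0.0554). The leukocyte marker sum was highest in KO under DSS, where the mean of Ripk3 was lowest, and its part in the Ripk3 values was not tested.

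Mlkl, at chr8:111311797-111338177 on the minus strand, encodes the protein that carries out necroptosis. It had 102, 73.3 and 112 CPM in untreated WT and 99.8, 84.3 and 93.8 CPM in WT under DSS, with overlap (-0.05, 95% interval -0.38 to 0.28). In KO it had 70.5, 91.1 and 86.6 CPM untreated and 116, 116 and 101 CPM under DSS. The KO groups did not overlap, and the difference was 0.42 ± 0.16 (unadjusted p = 0.0161, adjusted p = 0.175). Genotypes differed by -0.21 untreated and 0.26 under DSS. The interaction was 0.47 (unadjusted p = 0.0486, adjusted p = 0.466), so Mlkl passed in none of the 5 contrasts.

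**Figure D3:**
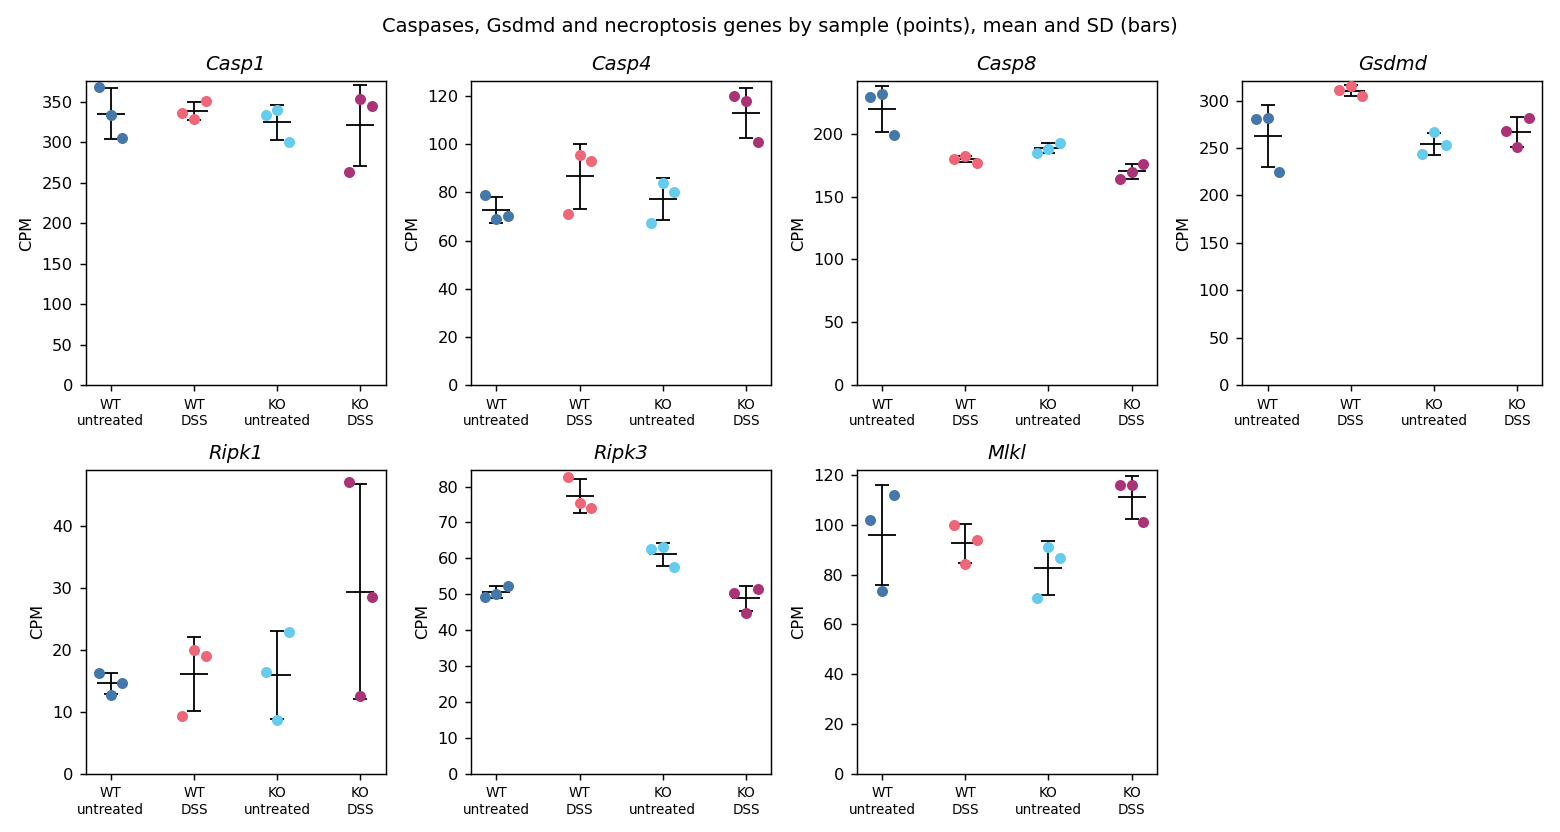
CPM (y axes, linear from 0) of the 7 genes other than gasdermin C in each sample (points) by group (x axis), with mean and SD as bars. Ripk3 was highest in WT under DSS, at 74 to 82.8 CPM, Casp4 in KO under DSS, at 101 to 120.0 CPM, and Casp1 overlapped in all 4 groups.

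Per length of exons, the mean level over all samples was 3147 CPM per kb for Gsdmc4 and 1571 for Gsdmc2. Then came Casp1 at 220.5, Gsdmd at 115, Casp8 at 65.6, Mlkl at 41.5, Ripk3 at 26, Casp4 at 23.6 and Ripk1 at 2.28 CPM per kb. Ripk3 and Casp4 changed places by group: Casp4 was at 30.4 and Ripk3 at 21.3 CPM per kb in KO under DSS, and 23.4 and 33.8 in WT under DSS. All 9 genes passed the filter on low counts, so all were tested in every contrast.

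Counted over the 9 genes, 3 passed under DSS in WT, where 6.30% of the 12522 genes tested passed. They were Ripk3, which rose (2.80% of all genes were higher), and Gsdmc2 and Gsdmc4, which fell (3.50% lower). Under DSS in KO 1 of 9 passed, Casp4, which rose, beside 3.92% of all genes in either direction and 1.88% higher. Between untreated genotypes 2 of 9 passed, Gsdmc2 and Gsdmc4, both lower in KO, beside 3.48% of all genes and 1.76% lower. Under DSS 1 of 9 differed between genotypes, Ripk3, lower in KO, beside 3.11% of all genes and 1.34% lower. For the interaction 3 of 9 passed, with Gsdmc2 and Gsdmc4 positive and Ripk3 negative, beside 1.70% of all genes, 1.17% positive and 0.527% negative. Gsdmc2 and Gsdmc4 can share reads and are not separate evidence in these counts. Contrasts also share samples, and both DSS in WT and the untreated genotype comparison use the same untreated WT samples.

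The median log2 difference over the 9 genes was 0.01 under DSS in WT and 0.32 under DSS in KO, beside 0.01 and 0.02 over all genes tested. It was -0.05 between untreated genotypes and 0.13 under DSS. CPM did not overlap between groups for 5 of 9 genes under DSS in WT and 6 of 9 in KO, beside 20.6% and 24.3% of all genes. Between genotypes this held for 4 of 9 untreated and 6 of 9 under DSS, beside 19.3% and 22.3%. Many of these separate pairs of groups did not pass the test, such as those of Casp8, Gsdmd and Mlkl.

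**Figure D4:**
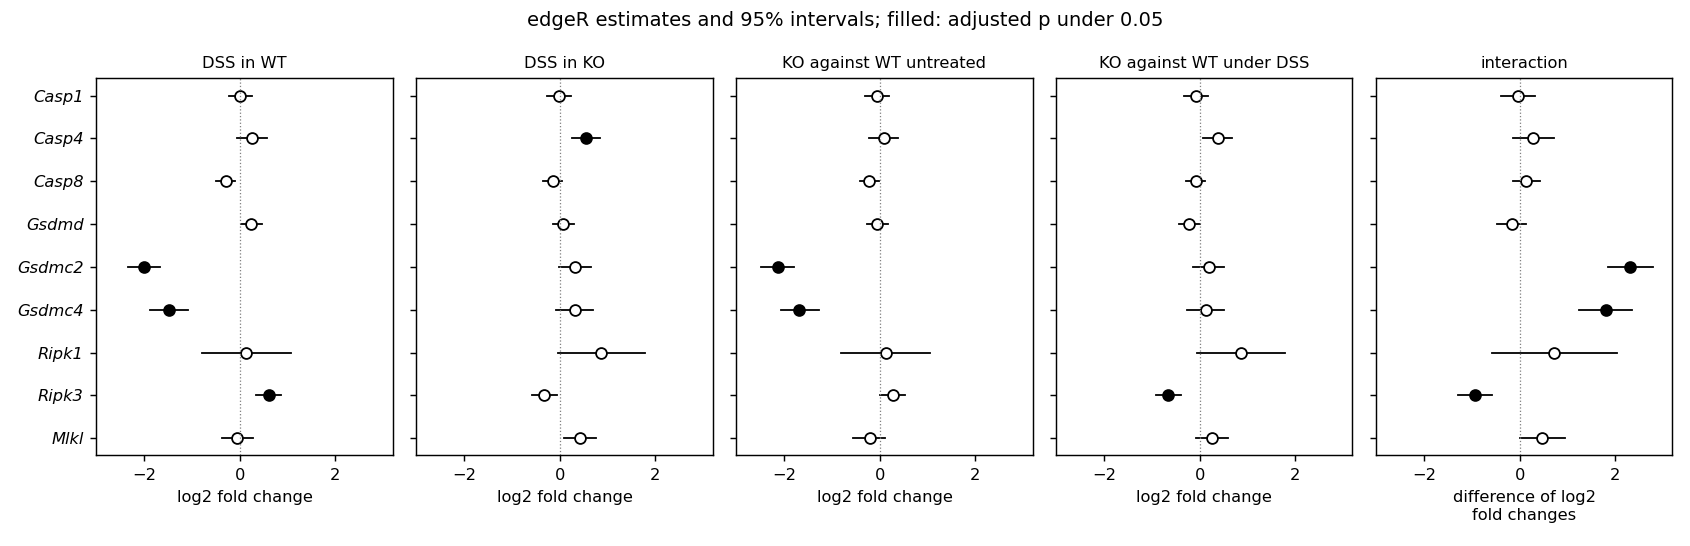
Log2 fold change (x axis) of the 9 genes in the 5 contrasts with 95% confidence intervals, where filled points passed at an adjusted p under 0.05. Gsdmc2 and Gsdmc4 stand furthest from 0 in WT under DSS, between untreated genotypes and for the interaction, and Ripk1 has the widest intervals.

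Other genes of the same pathways were taken from 4 lists with 107 genes in the count tables, of which 95 were tested. Under DSS in WT 12 of the 95 passed (12.6%), 11 higher and 1 lower, and in KO 4 passed (4.21%), all higher. Between untreated genotypes 7 passed (7.37%), 3 higher and 4 lower in KO, and under DSS 4 passed (4.21%), all lower in KO. These shares stand beside the 6.30%, 3.92%, 3.48% and 3.11% of all genes. Both genotype counts include Nfkb2, the gene knocked out, whose lower level follows from the design. Nfkb2 was at -1.36 untreated (edgeR adjusted p = 0.00123) and -1.28 under DSS (adjusted p = 0.00224). The counts for DSS in WT and for untreated genotypes include Gsdmc3, which can share reads with Gsdmc2 and Gsdmc4.

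Among 40 genes of death receptor signalling and necroptosis, 5 were higher under DSS in WT and 3 in KO, and none lower. Of all genes tested, 2.80% were higher under DSS in WT and 1.88% in KO. Tnfaip3, which encodes the ubiquitin editor A20 that restrains TNF signalling, had 82.9, 108 and 69.8 CPM in untreated WT and 205, 178 and 193 CPM under DSS (log2 fold change 1.14 ± 0.15, adjusted p = 0.000174). Tnfrsf1b, the gene of TNF receptor 2, rose by 1.07 (adjusted p = 0.00105) and Tnfsf10, the gene of the death ligand TRAIL, by 1.09 (adjusted p = 0.0146). The Tnfsf10 call was lost in 5 of 18 alternative fits. The remaining 2 of the 5, named after their values were seen, were Birc3 (0.61) and Fas (0.61), whose calls were lost in 5 and 14 of 18 alternative fits.

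In KO, DSS raised Fas, the gene of a death receptor, from 28.7, 22.1 and 21.9 CPM to 40.3, 47.2 and 47 CPM (0.89 ± 0.17, adjusted p = 0.00816), a call lost in 1 of 18 alternative fits. Fas levels under DSS overlapped between KO and WT. Zbp1, the gene of a nucleic acid sensor that engages RIPK3, had 139.7, 140.2 and 142 CPM in untreated KO and 259, 228 and 243 CPM in KO under DSS. It rose by 0.79 ± 0.11 (adjusted p = 0.000665). In WT, Zbp1 lay between 176 and 233 CPM in all 6 samples, and untreated KO was lower than untreated WT (-0.47, adjusted p = 0.0255), a call lost in 6 of 18 alternative fits. Its interaction was 0.68 (adjusted p = 0.0298), the opposite sign to that of Ripk3, and with the replicate block its adjusted p was 0.0547. Rnf31, which encodes the HOIP subunit of the linear ubiquitin ligase, rose by 0.52 in KO (adjusted p = 0.0148), a call lost in 4 of 18 alternative fits.

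Between untreated genotypes, Tnip1, which encodes a partner of A20, was higher in KO (0.60, adjusted p = 0.0457) and Tlr3, the gene of a receptor for double-stranded RNA, was lower (-0.48, adjusted p = 0.0438). With the replicate block the adjusted p was 0.0698 for Tnip1 and 0.072 for Tlr3, and each call was lost in most alternative fits, 12 and 13 of 18. No gene of this list passed between genotypes under DSS with edgeR. There 6 of its 40 genes had an unadjusted p under 0.05, a similar share to the 1829 of all 12522 genes tested.

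Among 33 listed inflammasome and pyroptosis symbols, 32 matched a gene name in the count tables and 23 were tested. The symbol Dfna5 had no match, which does not mean that the gene was missing under another name. Nlrp3 did not pass the filter, with at most 9 counts in a sample, and neither did Il1a, with at most 13. Il1b, whose product caspase-1 matures, was low throughout and highest in KO under DSS, with 11, 6.23 and 18 CPM against 0.808, 3.05 and 1.9 CPM in untreated KO (2.59 ± 0.63, adjusted p = 0.0327). With the replicate block its adjusted p was 0.0761, and the call was lost in 6 of 17 alternative fits. Il1b is also a product of myeloid cells, and the leukocyte marker sum was highest in the same samples. Its part in the Il1b values was not tested.

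Il18bp, the gene of the protein that binds and blocks IL-18, had 52.2, 50.9 and 55.5 CPM in untreated WT and 91, 95.7 and 135 CPM in WT under DSS. In KO it was 44.7, 56.8 and 55.1 CPM untreated and 52.5, 57.1 and 49.9 CPM under DSS. KO under DSS was lower than WT under DSS without overlap (-1.01, adjusted p = 0.00284), and the interaction was -0.99 (adjusted p = 0.038, or 0.0535 with the replicate block). Nlrc4, the gene of an inflammasome receptor subunit, was also lower in KO under DSS, at 47, 42.3 and 47.5 CPM against 68.8, 65.6 and 66.7 CPM (-0.56, adjusted p = 0.0483, or 0.0812 with the block), a call lost in 10 of 18 alternative fits. Il18, the gene of an epithelial cytokine that caspase-1 also matures, passed under DSS in WT at 0.86, a call lost in 12 of 18 alternative fits. It was named after its values were seen.

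Among 28 caspase and apoptosis genes 25 were tested. Of these, 3 passed under DSS in WT, all higher, beside 6.30% of all genes in either direction and 2.80% higher. In KO 0 passed, beside 3.92% of all genes. There 3 of the 25 had an unadjusted p under 0.05, beside 1987 of all 12522 genes tested. Casp14, a caspase known for its role in keratinocyte differentiation, had 27.3, 24.9 and 30.0 CPM in untreated WT and 53.2, 38.1 and 51.2 CPM in WT under DSS. In KO it had 25.8, 20.5 and 17.5 CPM untreated and 15.4, 12.9 and 11.5 CPM under DSS, so the direction of the values differed by genotype. KO under DSS was 3.59-fold lower than WT under DSS (-1.84 ± 0.21, adjusted p = 0.000136), and the interaction was -1.48 ± 0.29 (adjusted p = 0.0126).

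Pmaip1, which encodes the pro-apoptotic protein NOXA, had 49.1, 57.6 and 56.7 CPM in untreated WT and 78 to 109 CPM in the other 9 samples. It was higher in untreated KO than in untreated WT (0.77 ± 0.14, adjusted p = 0.005), and the interaction was -1.07 (adjusted p = 0.00725).

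Of 7 NF-kB pathway genes, Nfkbia, which encodes the inhibitor IkBa and is itself an NF-kB target, rose by 1.32 ± 0.11 under DSS in WT (adjusted p = 2.49e-06) and was higher in untreated KO (0.94, adjusted p = 0.000134). Its mean was 130.3 CPM in untreated WT and 325, 251 and 248 CPM in WT under DSS, untreated KO and KO under DSS. The interaction was -1.33 ± 0.15 (adjusted p = 0.000206). With Gsdmc2, Gsdmc4, Gsdmc3 and Pmaip1 it belongs to the genes for which untreated WT stood apart from the other 3 groups. The leukocyte marker sum was lowest in untreated WT too, as were Nfkbia and Pmaip1, and its part in their values was not tested.

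**Figure D5:**
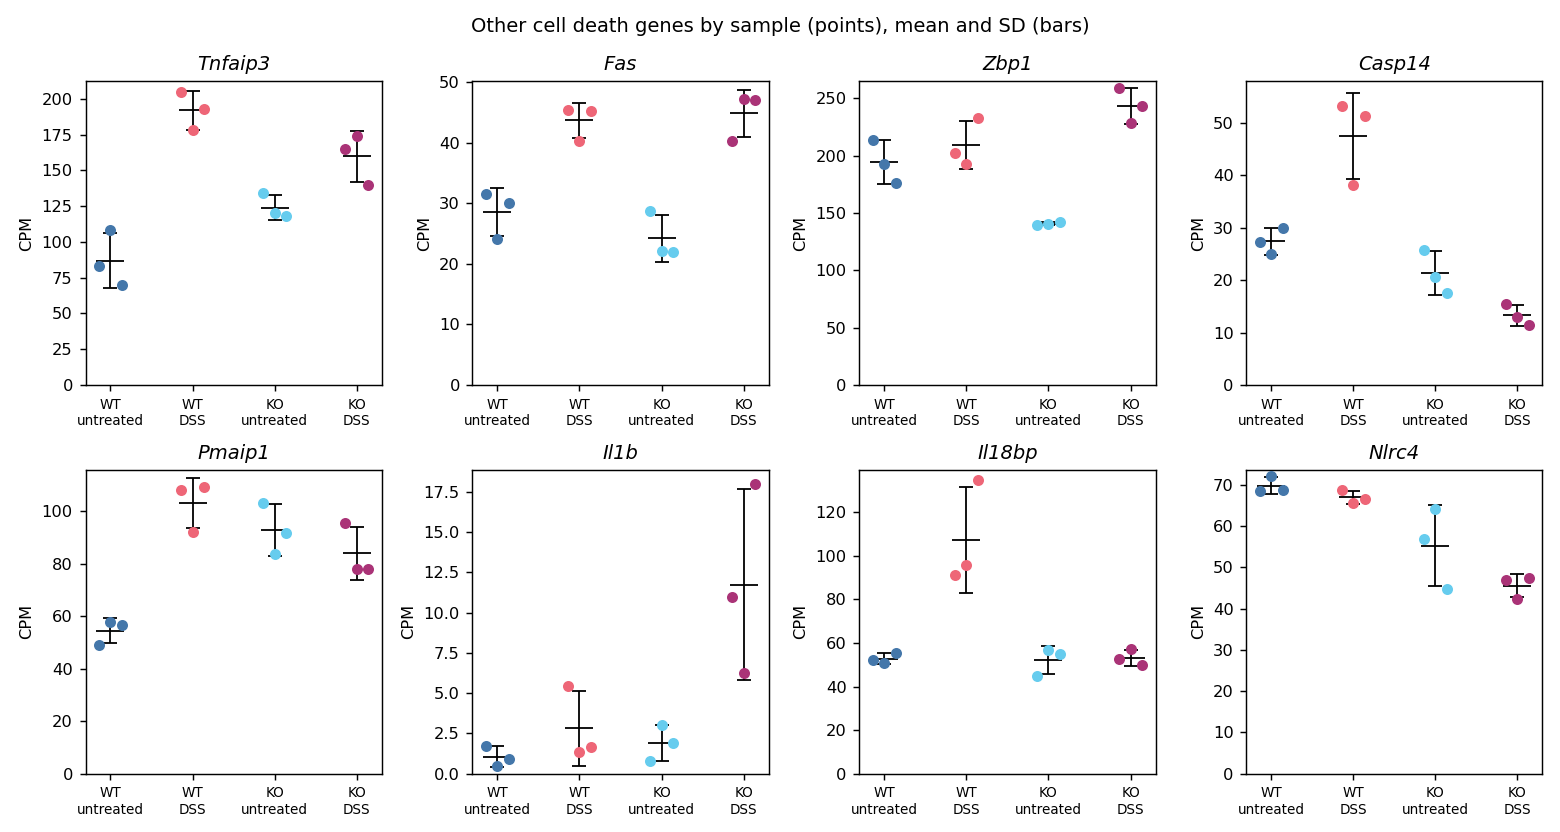
CPM (y axes, linear from 0) of 8 genes of the pathway lists in each sample (points) by group (x axis), with mean and SD as bars. Il18bp and Casp14 were highest in WT under DSS, Zbp1 lowest in untreated KO, and Il1b was between 6.23 and 18 CPM in KO under DSS.

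The genes whose log2 CPM was most like that of Gsdmc2 over the 12 samples, among 8841 genes compared, were Gsdmc3 (Pearson r = 0.991), Capn13 (0.988) and Nfe2l2 (0.965). For Gsdmc4 they were Gsdmc3 (0.992), Capn13 (0.970) and Itln1 (0.965). Capn13, which encodes a calpain protease, had means of 815 CPM in untreated WT and 253, 234 and 246 CPM in WT under DSS, untreated KO and KO under DSS. For Ripk3 they were Jpt1 (0.886), Unc5cl (0.882) and Srebf1 (0.882), and for Casp4 they were Daxx (0.895), Man2b1 (0.873) and Bcl9 (0.869). Daxx had means of 51.1, 56.3 and 53.5 CPM in the first 3 groups and 105 CPM in KO under DSS. These correlations rest on the same 12 libraries in 4 groups and describe likeness of pattern only.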

How the data were processed

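Libraries were made from 2 ng of total RNA (RNA integrity numbers 7.2 to 9.2, median 8.8) by the SMART-seq2 and Nextera XT methods, per the labels. The deposited values are whole-number read counts per gene, 1 column per sample. The submitters' processing notes name STAR 2.5.2b, featureCounts 1.5.0 and GRCm38/mm10, and the counting options are not given in the sources used here. ID versions were ignored to match symbols in GENCODE M21 (46005 of 46517 IDs, 27555 with the version).

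Counts were tested with edgeR 4.0.16 in R 4.3.3: filterByExpr, TMM, 1 coefficient per group over 12 samples and a two-sided quasi-likelihood F test. p-values were adjusted by Benjamini-Hochberg over 12522 genes, with a threshold of 0.05. Log2 CPM used a prior count of 2. The same code was also run on simulated counts, whose means, library sizes and spread were taken from the fit to these data. The floor is 3 counts, 0.37 to 0.536 CPM, and covers counting error only. Alternatives were DESeq2 1.42.0, its size factors, other filters, only the groups compared, a replicate block and leaving out each sample.

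The titles number the samples 1 to 3 in each group. Same-numbered samples of untreated KO and KO under DSS deviated together (r = 0.204, 0.106 and 0.127), so there the blocked values stand beside the results they change. The block fits 1 effect per number over all 12 samples of both genotypes, so it is not a pairing within KO alone. Replicates of a group differed beyond sampling noise (chi-square per degree of freedom 6.51 to 27).

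The 9 genes and the lists were chosen with earlier results of these data known. Besides them, list genes were named by rule: in a contrast, the 4 that rose and the 4 that fell most among those past the threshold (log2 CPM averaging 1 or more), and the 3 genes most correlated with each of the 9 that passed. Promoter windows are from RefSeq (GRCm38.p6), where 6 of the 9 genes matched. Some results of the lists are not reported here.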

Additional observations from a re-analysis of the deposited data

Results flagged for a closer look

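For 9 genes among the members and the lists, the DSS change in KO differed from that in WT by the interaction term of the edgeR fit. The threshold was an adjusted p under 0.05, which 213 of all 12522 genes tested passed (1.70%). Of the 95 list genes tested, 6 passed (6.32%). Of the 9 genes described, these were Gsdmc2 (2.32), Gsdmc4 (1.81) and Ripk3 (-0.93), all in log2 units. Among the pathway lists they were Gsdmc3 (1.44), Nfkbia (-1.33), Zbp1 (0.68), Pmaip1 (-1.07), Casp14 (-1.48) and Il18bp (-0.99). Gsdmc2, Gsdmc4 and Gsdmc3 can share reads, so their 3 values are not separate evidence. With the replicate block the adjusted p was 0.0547 for Zbp1 and 0.0535 for Il18bp, and these calls were lost in 11 and 9 of 17 alternative fits.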

How the results depend on the processing

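Over 811 refits of the values of the 9 genes, 790 kept their side of the threshold, 11 lost a call, 10 gained one and 0 changed direction as a call. Most of these values were not calls, so most refits could not lose one. The call of Casp4 under DSS in KO was lost in 10 of its 18 refits. That of Ripk3 between genotypes under DSS was lost in 1 of 18. Values that did not pass could change sign, such as Casp1 under DSS in WT, at -0.05 to 0.08 with each sample left out. Under DSS in KO, where 1 gene passed, 4 passed with no filter on low counts, 3 when only the 2 groups were fitted, 0 with the replicate block, and 0 to 3 when each sample was left out in turn. For KO against WT under DSS, where 1 passed, 2 passed with no filter, and 0 to 1 when each sample was left out, the 0 being without replicate 1 of WT under DSS. The cause of these shifts was not tested. The counts for DSS in WT (3 to 4), for untreated genotypes (2) and for the interaction (3) stayed within 1.5 times. The Nfkb2 difference was -1.38 to -1.23 with each sample left out.

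Over 623 refits of the list genes, 124 lost a call and 0 reversed. List genes past the threshold numbered 6 to 15 under DSS in WT, 1 to 8 in KO, 4 to 10 between untreated genotypes, 3 to 9 under DSS and 4 to 8 for the interaction. Over all genes, 467 to 1017 passed under DSS in WT against 789, 235 to 776 in KO against 491, 195 to 740 between untreated genotypes against 436, 160 to 642 under DSS against 390, and 152 to 356 for the interaction against 213.

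The block left 695, 409, 345, 290 and 186 genes called in the same order of contrasts. Outside the KO pair, samples share only a number: r was 0.014 to 0.128 in WT, -0.175 to -0.053 between untreated genotypes and -0.117 to -0.01 under DSS. Each sample correlated best with its own number in 6 of 6 cases in both DSS comparisons and 0 of 6 in both genotype comparisons. The block changed no other call among the 9 genes than that of Casp4. With 61 to 267 counts and a log2 interval from -0.79 to 1.08 under DSS in WT, depth and spread limit Ripk1 most.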
